A study of Mus musculus with 12 samples.

Results

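The 49 genes described here are the mouse genes listed for origin licensing, the replication fork, nucleotide supply and entry into S phase, out of 55367 genes in the count table. The rule names them by symbol and role and uses no measured value, but the list was chosen with earlier results of these data known. All 49 were expressed enough to be tested among 17076 genes. The libraries come from mouse organoids, which are epithelial cultures grown in 3 dimensions, of 2 taste papillae of the posterior tongue: CVP, from the circumvallate papilla, and FoP, from the foliate papilla. For each line there was wild type in duplicate and a pair of clones labelled Foxe1 knock-out, each also in duplicate: clones 2.9 and 2.10 for CVP, and clones 2.4 and 2.5 for FoP. That gives 12 libraries in 4 groups, with 2 wild type and 4 knock-out libraries per line. Foxe1 encodes a forkhead transcription factor, and the design text places it in the choice of cell fate in this epithelium.

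The labels give the treatment only as a genetic modification, with no age, strain or method, and describe the cell type as various. The labels call none of the wild type libraries a clone, so genotype and derivation of a clone cannot be told apart, and each clone is 1 derivation. Duplicates carry the same line or clone name, and nothing in the labels says that they are separate cultures or animals. The wild type libraries of a line are counted as 1 culture here, which the labels do not state. The p-values therefore measure only the spread between these libraries, part of which may be technical.

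DNA replication is prepared in G1, when the origin recognition complex, Cdc6 and Cdt1 load the ring-shaped Mcm2 to Mcm7 helicase onto chromatin. In S phase, Cdc45 and the GINS complex turn that ring into an active helicase, primase and the DNA polymerases copy both strands around the sliding clamp Pcna, and new histones are placed behind the fork. Many of these genes are transcribed in late G1 under control of E2F factors, and in a layered epithelium their RNA is known to be found mainly in dividing basal and progenitor cells.

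Promoter sequence is shown for 6 of the genes because many of the 49 moved together and E2F-type letters are what their promoters are best known for. Mouse RefSeq promoter entries (GRCm38.p6) matched 39 of the 49 genes by symbol. The letters searched, on both strands and from 250 bases before to 30 after the RefSeq transcript start, were TTTCCCGC, TTTCGCGC, TTTGCCGC and TTTGGCGC, which can overlap one another. At least 1 of them stood in an entry of 11 of the 39 genes (28.2%), in 484 of the 11619 tested genes with an entry (4.17%) and in 661 of all 27025 genes with an entry (2.45%). The 4 genes with such letters that had the largest mean change over both lines are printed first, with the letters in capitals, followed by 2 genes with none. Where a gene has several entries, the first that holds the letters is shown, or the first of all where none does, as for Uhrf1 and E2f2. The intervals are Uhrf1 at chr17:56304063-56304342 on the plus strand, Mcm3 at chr1:20820283-20820562 on the minus strand, Cdc6 at chr11:98907901-98908180 on the plus strand, Orc1 at chr4:108579204-108579483 on the plus strand, E2f2 at chr4:136172024-136172303 on the plus strand and Cdt1 at chr8:122567765-122568044 on the plus strand. Each sequence runs 5′ to 3′ along the strand of its gene, with its last 30 bases after the RefSeq transcript start. For the E2f2 entry shown, the bases after that start were not found in the gene's transcripts in GENCODE M21, a mouse gene annotation.
Uhrf1: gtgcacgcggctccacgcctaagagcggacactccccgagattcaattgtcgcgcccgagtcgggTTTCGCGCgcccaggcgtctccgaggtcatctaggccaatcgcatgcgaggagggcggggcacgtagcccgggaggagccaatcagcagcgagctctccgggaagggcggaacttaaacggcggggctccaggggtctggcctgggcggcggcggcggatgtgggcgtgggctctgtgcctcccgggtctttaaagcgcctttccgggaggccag
Mcm3: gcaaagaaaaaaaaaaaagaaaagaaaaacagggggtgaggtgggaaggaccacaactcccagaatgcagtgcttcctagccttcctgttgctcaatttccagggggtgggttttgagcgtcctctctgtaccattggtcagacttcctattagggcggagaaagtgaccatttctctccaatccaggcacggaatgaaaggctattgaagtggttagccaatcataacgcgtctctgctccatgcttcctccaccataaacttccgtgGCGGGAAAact
Cdc6: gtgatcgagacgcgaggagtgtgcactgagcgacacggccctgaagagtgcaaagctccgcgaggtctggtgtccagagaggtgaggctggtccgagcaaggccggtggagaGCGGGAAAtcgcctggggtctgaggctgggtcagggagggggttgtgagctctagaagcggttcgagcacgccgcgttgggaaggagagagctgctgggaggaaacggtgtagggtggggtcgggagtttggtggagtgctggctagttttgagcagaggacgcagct
Orc1: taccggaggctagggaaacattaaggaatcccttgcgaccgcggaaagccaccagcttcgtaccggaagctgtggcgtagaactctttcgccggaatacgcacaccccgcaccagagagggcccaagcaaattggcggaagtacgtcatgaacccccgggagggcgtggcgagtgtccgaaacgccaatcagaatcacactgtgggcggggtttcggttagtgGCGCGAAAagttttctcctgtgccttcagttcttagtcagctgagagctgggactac
E2f2: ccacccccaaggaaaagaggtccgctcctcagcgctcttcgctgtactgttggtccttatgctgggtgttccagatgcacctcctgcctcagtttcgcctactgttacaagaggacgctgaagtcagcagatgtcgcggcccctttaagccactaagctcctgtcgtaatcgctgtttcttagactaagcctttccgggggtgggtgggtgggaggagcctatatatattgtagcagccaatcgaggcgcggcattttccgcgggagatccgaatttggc
Cdt1: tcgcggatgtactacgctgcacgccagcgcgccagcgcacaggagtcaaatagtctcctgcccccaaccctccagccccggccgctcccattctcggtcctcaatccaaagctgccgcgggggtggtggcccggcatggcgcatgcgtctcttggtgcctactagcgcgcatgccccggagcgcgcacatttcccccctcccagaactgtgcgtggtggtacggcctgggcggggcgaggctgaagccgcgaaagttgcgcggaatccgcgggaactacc

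In Mcm3 the capitals lie after the transcript start and read as the reverse complement of TTTCCCGC, as they do before the start in Cdc6. Uhrf1 holds TTTCGCGC, and Orc1 its reverse complement. A match is a description of the letters and not a bound site, and the absence of these letters in E2f2 and Cdt1 says only that they are not in this window. The RefSeq starts were not measured in these organoids. The CCAAT box stood in an entry of 61.5% of the 39 genes against 41.9% of the tested genes with an entry, and the letters TTTGAA or TTTAAA, known from genes of mitosis, in 28.2% against 22.3%.

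Library totals ran from 59.3 to 73.6 M counts, and a single one of the 49 genes held between 10 and 7372 counts in a library, so counting error was small for most of them and largest for Dscc1 and Orc1. Foxe1 itself was counted 1049 and 1144 times in CVP wild type, 1527 and 1432 in clone 2.9, and 487 and 547 in clone 2.10. In FoP it was counted 1124 and 989 times in wild type, 1471 and 1292 in clone 2.4, and 707 and 660 in clone 2.5. Foxe1 RNA was thus present in every library labelled knock-out, above wild type in clones 2.9 and 2.4 and below it in clones 2.10 and 2.5. Whether these counts fall outside the altered part of the gene is not stated, so they do not check the labels. Epithelial markers were high in all libraries (9104 to 15570 counts per M summed over 7 genes). Of the markers of other cell types, Ptprc of the 7 immune and Lum of the 7 fibroblast markers were at 0 in all 12, and none of the 5 endothelial ones was. The immune list summed to 12.1 to 14.7 counts per M in wild type and 1.54 to 5.47 in the clones, most of it Cd68, at 736 to 986 counts in wild type and 94 to 329 in the clones, which fell in both lines. Fibroblast markers summed to 3.93 to 5.87 counts per M in wild type and 4.48 to 10.2 in the clones, where Pdgfra rose in both lines and Dcn fell. Endothelial markers summed to 0.979 to 1.34 in wild type and 1.80 to 3.03 in the clones, where Pecam1 rose in both lines. Tek, another endothelial marker, went the other way in CVP. It fell from 57 and 42 counts in CVP wild type to 11 and 24 in clone 2.9 and 4 and 12 in clone 2.10. The part of these cells in the values below was not tested.

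Levels are given as CPM, counts per M of the library total after scaling by the trimmed mean of M values (TMM). A gene was called where the Benjamini-Hochberg adjusted p of edgeR's quasi-likelihood test over all 17076 genes was under 0.05. Changes are log2 fold changes with their standard error (SE). Per kilobase of exon, the highest of the 49 in FoP wild type were the sliding clamp Pcna (28.2 CPM per kb), the polymerase delta subunit Pold2 (23.5) and the GINS subunit Gins4 (18.1). The lowest on the same scale were Cdc6 (0.531), Orc1 (0.430) and Dscc1 (0.235), a subunit of an alternative clamp loader.

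In the FoP line, replication genes of all 8 roles were lower in the clones labelled knock-out than in wild type. Of the 49 genes, 34 fell and 1 rose, while 15.3% of all tested genes fell and 13.5% rose. The median log2 fold change of the 49 was -0.62, against 0.01 over all tested genes, and it lay between -0.70 and -0.54 under every alternative tried. The helicase activators Mcm10 and Cdc45, the polymerase epsilon catalytic subunit Pole and the helicase subunit Mcm5 fell most, and E2f2 was the gene that rose. In 41 of the 49 genes all 4 knock-out libraries lay below both wild type libraries, which was so for 25.8% of all tested genes, and in 1 gene, E2f2, all 4 lay above them (23.9% of all tested genes). In bulk RNA, fewer dividing cells and less RNA per cell cannot be told apart.

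**Figure D1:**
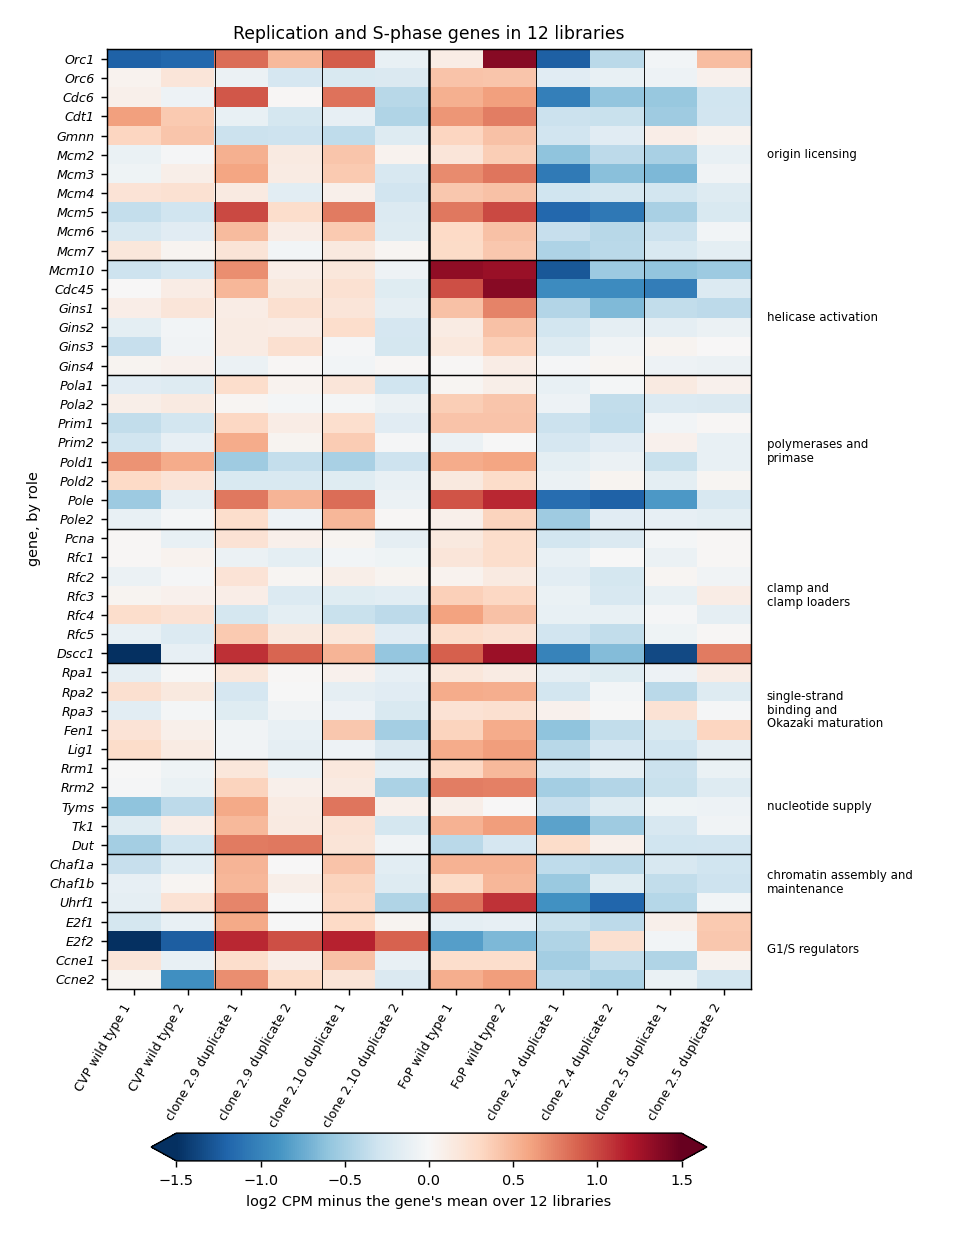
Heat map of the 49 genes (rows, grouped by role) in the 12 libraries (columns, thick line between the CVP and FoP lines), coloured by log2 CPM minus the gene's mean over the 12 libraries. The FoP wild type columns are mostly red and those of clones 2.4 and 2.5 mostly blue, while in CVP the first duplicates of clones 2.9 and 2.10 are redder than the second.

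Among the licensing genes, 10 of 11 fell in FoP. Mcm5, a subunit of the replicative helicase, was at 24.3 and 27.9 CPM in the FoP wild type libraries, 6.21 and 6.67 in clone 2.4 and 9.99 and 12.03 in clone 2.5. All 4 knock-out libraries lay below wild type, clone 2.4 lowest (log2 -1.58 ± 0.33, adjusted p = 0.00642 in edgeR's test). Mcm3, another subunit of that ring, was at 37.8 and 40.4 CPM in the FoP wild type libraries, 11.1 and 14.97 in clone 2.4 and 14.4 and 22.2 in clone 2.5 (log2 -1.32 ± 0.26, adjusted p = 0.00454). Its clones stood apart from wild type as well, although the second duplicate of clone 2.5 was the highest of them. Mcm2, the subunit most used as a marker of licensed cells, was at 34.9 ± 3.23 CPM in wild type (SD, n = 2) and 22.00 ± 3.31 in the clones (SD, n = 4), a log2 change of -0.67 ± 0.15, adjusted p = 0.00525. Mcm4 (-0.68 ± 0.09), Mcm6 (-0.64 ± 0.16) and Mcm7 (-0.65 ± 0.09) fell by similar amounts, so all 6 subunits of the ring were lower. Mcm7 shares 3.89% of its exon bases with another gene of its own strand and 8.70% with genes of the other.

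The loading factors fell too. Cdc6, which brings the helicase to the origin, was at 2.69 and 2.86 CPM in the FoP wild type libraries, 0.912 and 1.24 in clone 2.4 and 1.26 and 1.51 in clone 2.5 (log2 -1.18 ± 0.33, adjusted p = 0.0168). Its clone libraries were all below wild type. Cdt1, the partner of Cdc6 in loading, was at 23.9 and 25.8 CPM in the FoP wild type libraries, 12.1 and 12.04 in clone 2.4 and 10.5 and 12.4 in clone 2.5, and fell by a log2 value of -1.08 ± 0.10, adjusted p = 2.01e-05. Geminin (Gmnn), the protein that holds Cdt1 inactive after S phase has begun, was at 13.4 ± 0.786 CPM in wild type (SD, n = 2) and 9.74 ± 1.22 in the clones (SD, n = 4; log2 -0.46 ± 0.11, adjusted p = 0.00901). The licensing factor and its inhibitor were thus both lower. Of the origin recognition subunits, Orc6 fell (-0.49 ± 0.08), while Orc1 did not pass (-1.05 ± 0.44, adjusted p = 0.0939), with 0.886 and 2.10 CPM in the wild type libraries themselves.

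Helicase activation held the largest changes. Mcm10, which is needed to start unwinding, was at 6.25 and 6.13 CPM in the FoP wild type libraries, 1.03 and 1.70 in clone 2.4 and 1.65 and 1.70 in clone 2.5 (log2 -2.02 ± 0.23, adjusted p = 6.66e-05). No clone library came near wild type, and the FoP wild type duplicates agreed closely. Cdc45, which joins the Mcm ring as part of the active helicase, was at 6.45 and 8.54 CPM in the FoP wild type libraries, 1.72 and 1.72 in clone 2.4 and 1.60 and 2.86 in clone 2.5 (log2 -1.92 ± 0.24, adjusted p = 0.000108). The wild type duplicates of Cdc45 differed from each other more than those of Mcm10, and all clones were below both. Of the GINS subunits Gins1 (-1.06 ± 0.19) and Gins2 (-0.45 ± 0.15) fell, while Gins3 (-0.30 ± 0.16, adjusted p = 0.188) and Gins4 (-0.10 ± 0.06, adjusted p = 0.267) did not pass. Gins2 shares 67.3% of its exon bases with Gse1 on the other strand, and since it is not known whether reads were counted by strand, its value is uncertain.

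Of the polymerases and primase, 5 of 8 fell in FoP. Pole, the catalytic subunit of the leading strand polymerase epsilon, was at 10.7 and 12.2 CPM in the FoP wild type libraries, 2.52 and 2.42 in clone 2.4 and 3.07 and 4.74 in clone 2.5 (log2 -1.85 ± 0.28, adjusted p = 0.000597). Clone 2.4 held the lowest values and clone 2.5 the next, with no overlap with wild type. Pold1, the catalytic subunit of polymerase delta on the lagging strand, was at 57.7 and 58.9 CPM in the FoP wild type libraries, 35.5 and 36.9 in clone 2.4 and 31.1 and 36.2 in clone 2.5 (log2 -0.74 ± 0.08, adjusted p = 3.24e-05). The accessory subunits Pold2 (-0.25 ± 0.07) and Pola2 (-0.61 ± 0.09) and the small primase subunit Prim1 (-0.60 ± 0.15) fell as well. Pole2 (-0.44 ± 0.17, adjusted p = 0.0685), the polymerase alpha catalytic subunit Pola1 (-0.04 ± 0.12, adjusted p = 0.83) and the large primase subunit Prim2 (-0.07 ± 0.16, adjusted p = 0.782) did not pass.

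The clamp and its loaders fell less. Pcna, which holds the polymerases on DNA, was at 65.03 and 70.1 CPM in the FoP wild type libraries, 48.3 and 50.4 in clone 2.4 and 57.5 and 59.1 in clone 2.5 (log2 -0.33 ± 0.10, adjusted p = 0.0227). The clones lay below wild type, with clone 2.5 nearer to it than clone 2.4. Of the loader subunits Rfc4 (-0.62 ± 0.09), Rfc5 (-0.42 ± 0.14), Rfc3 (-0.41 ± 0.10) and Rfc1 (-0.27 ± 0.05) fell, Rfc2 was at -0.20 ± 0.08, adjusted p = 0.0748, and Dscc1, with few counts, was at -1.41 ± 0.59, adjusted p = 0.0929. Of single-strand binding and the joining of Okazaki fragments, the ligase Lig1 fell from 57.5 ± 1.81 (SD, n = 2) to 31.7 ± 2.58 CPM (SD, n = 4; log2 -0.86 ± 0.07, adjusted p = 8.92e-06) and the RPA subunit Rpa2 by -0.77 ± 0.10 on the log2 scale. Rpa1 (-0.22 ± 0.09, adjusted p = 0.0806), Rpa3 (-0.16 ± 0.09, adjusted p = 0.219) and the flap nuclease Fen1 (-0.63 ± 0.30, adjusted p = 0.144) did not pass. Fen1 shares 84.2% of its exon bases with Tmem258 and a predicted gene on the other strand, so its value is uncertain.

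Of the genes for nucleotide supply, both subunits of ribonucleotide reductase fell in FoP. Rrm2, the subunit made in S phase, was at 28.1 and 28.03 CPM in the FoP wild type libraries, 11.7 and 12.3 in clone 2.4 and 13.2 and 14.5 in clone 2.5 (log2 -1.12 ± 0.16, adjusted p = 0.00041). Its clone libraries were near each other and far from wild type. Rrm1 (-0.60 ± 0.09) and thymidine kinase Tk1 (-0.96 ± 0.22) also fell. Thymidylate synthase Tyms (-0.22 ± 0.19, adjusted p = 0.428) and the dUTPase Dut (0.29 ± 0.26, adjusted p = 0.47) did not pass, and Dut is the member of this role with a value above 0. The 3 genes of chromatin assembly and maintenance fell together: Uhrf1, which recruits the maintenance DNA methyltransferase (-1.53 ± 0.34, adjusted p = 0.00911), and the histone chaperone subunits Chaf1a (-0.85 ± 0.16) and Chaf1b (-0.74 ± 0.17). Chaf1a shares 52.5% of its exon bases with Ubxn6 on the other strand.

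The G1/S regulators were split. Cyclin E1 (Ccne1), which with Cdk2 drives entry into S phase, was at 7.13 and 7.13 CPM in the FoP wild type libraries, 4.18 and 4.60 in clone 2.4 and 4.35 and 6.16 in clone 2.5 (log2 -0.57 ± 0.18, adjusted p = 0.0318), and cyclin E2 (Ccne2) fell by -0.89 ± 0.26 on the log2 scale. E2f2, one of the activating E2F factors, went the other way, from 3.37 and 3.77 CPM in the wild type libraries to 4.38 and 7.09 in clone 2.4 and 5.82 and 7.91 in clone 2.5 (log2 0.82 ± 0.20, adjusted p = 0.00948). E2f1, the other activating E2F in the list, was at 10.7 ± 0.0568 CPM in wild type (SD, n = 2) and 11.5 ± 3.03 in the clones (SD, n = 4; log2 0.10 ± 0.22, adjusted p = 0.772). Clone 2.4 lay below wild type in E2f1 and clone 2.5 above it.

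The FoP count rests partly on single wild type libraries: fewer genes were called without FoP wild type 1 or without FoP wild type 2. E2f2 passed in neither fit. Each of these fits leaves a single FoP wild type library, and the shares of all tested genes called in them are not given here. The median log2 fold change of the replication genes lay between -0.70 and -0.54 under all 28 alternatives, these fits among them. Cdc6, Mcm6, Prim1, Pcna, Rfc5, Ccne1 and Ccne2 lost their call without each wild type library, Rfc3 without the first, and Gmnn, Mcm2, Gins2, Pold2, Tk1, Chaf1b and Uhrf1 without the second. Pcna, Rfc5 and Ccne1 also lost it without either duplicate of clone 2.4, Ccne1 without the first of clone 2.5, and Gins2 without any 1 of these 3 libraries. With the duplicates summed per culture, which leaves 2 residual degrees of freedom, 8 of the 35 calls held, and these 8 held under all 28 alternatives: Cdt1, Mcm4, Mcm10, Cdc45, Pold1, Rpa2, Lig1 and Rrm1. Alongside the fall, mitosis genes moved further: 28 of 28 fell in FoP, with a median log2 fold change of -2.04. Of the 12 tested markers of differentiated lingual keratinocytes, 5 fell and 7 did not pass. Their summed level over 13 genes was 2344 to 2400 counts per M in FoP wild type and 873 to 1824 in the clones, with no marker at 0 in all libraries. Sprr1a alone held 87.0 to 97.4% of that sum in the 12 libraries, and without it the other 12 summed to 152 to 180 counts per M in FoP wild type and 45.7 to 73.5 in the clones. Their part in the change of replication genes was not tested.

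In the CVP line, the 49 genes did not move as one. Of the 49 genes, 8 rose and 9 fell in the clones labelled knock-out, while 23.5% of all tested genes rose and 22.9% fell, so neither count is above that background. The median of the 49 was 0.16, against 0.03 over all tested genes. E2f2 and Orc1 rose most, with Tyms, Pole, Dut and Chaf1a behind them, and Pold1, Cdt1 and Gmnn fell most. All 4 clone libraries lay above both wild type libraries for 13 genes (31.7% of all tested genes) and below both for 12 (30.0% of all tested genes).

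**Figure D2:**
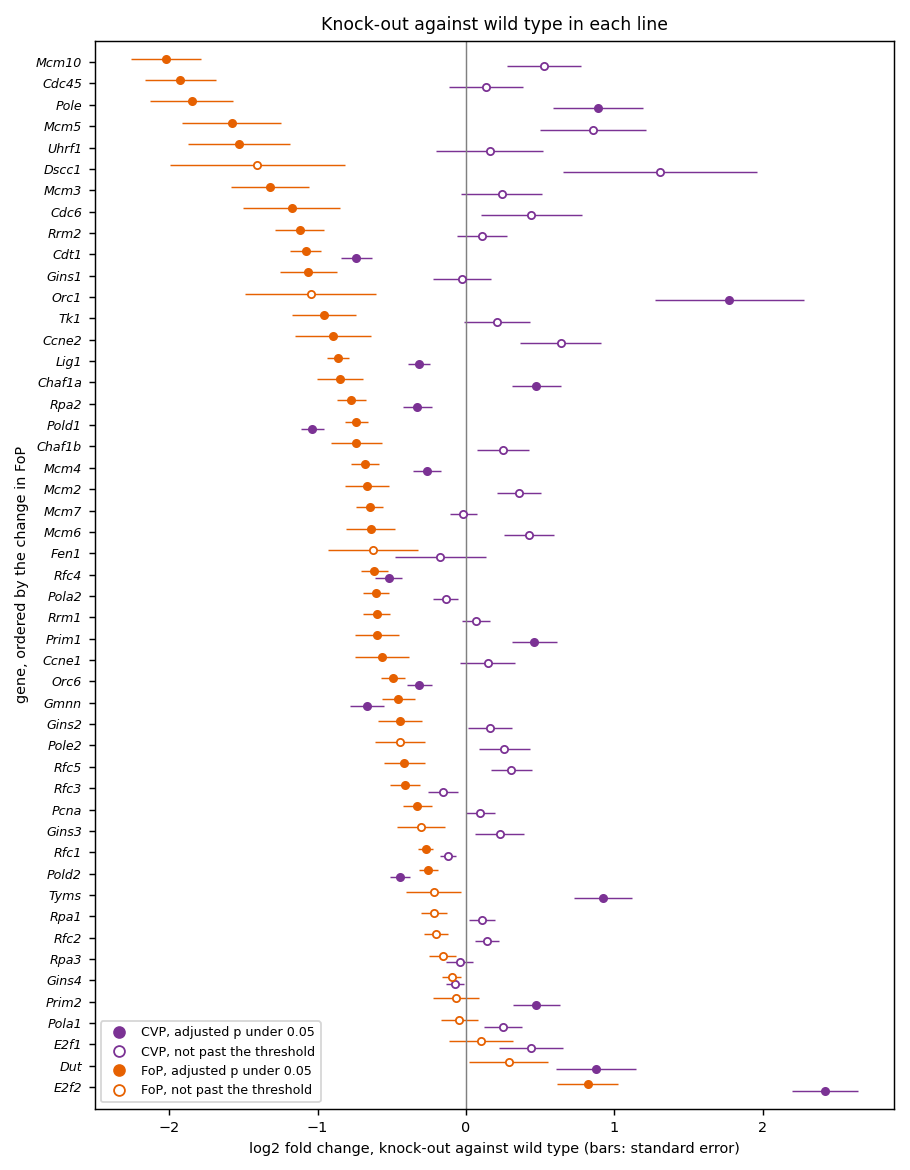
Log2 fold change of each of the 49 genes, clones labelled knock-out against wild type, with standard error bars, in CVP (purple) and FoP (orange); filled points passed an adjusted p of 0.05 in edgeR's test. In FoP 34 filled points lie left of 0 and E2f2 to its right, while in CVP 8 filled points lie right of 0 and 9 left of it.

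E2f2 was at 2.05 and 2.54 CPM in the CVP wild type libraries, 13.1 and 11.7 in clone 2.9 and 13.3 and 11.1 in clone 2.10 (log2 2.42 ± 0.22, adjusted p = 4.65e-06). The clones agreed and none of their libraries came near wild type. E2f1 did not pass in CVP (0.44 ± 0.22, adjusted p = 0.123), with 10.3 ± 0.768 CPM in wild type (SD, n = 2) and 13.96 ± 2.66 in the clones (SD, n = 4). Nor did cyclin E1 (0.15 ± 0.18, adjusted p = 0.552) or cyclin E2 (0.64 ± 0.27, adjusted p = 0.0709), for which the wild type duplicates alone were at 4.38 and 2.25 CPM.

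The other genes that rose in CVP serve origin licensing, the fork, nucleotide supply and chromatin. Tyms, which makes thymidylate, was at 4.64 and 5.39 CPM in the CVP wild type libraries, 10.5 and 7.68 in clone 2.9 and 12.3 and 7.45 in clone 2.10 (log2 0.92 ± 0.20, adjusted p = 0.00188). All clone libraries were above wild type, the first duplicates more so. Dut, which clears dUTP and so keeps uracil out of DNA, was at 34.4 and 39.99 CPM in the CVP wild type libraries, 84.3 and 85.2 in clone 2.9 and 56.3 and 47.2 in clone 2.10 (log2 0.88 ± 0.27, adjusted p = 0.0248). Here the clones differed from each other, with clone 2.9 well above clone 2.10 and both above wild type. Pole was at 3.81 and 5.07 CPM in the CVP wild type libraries, 9.66 and 7.95 in clone 2.9 and 9.998 and 5.26 in clone 2.10 (log2 0.89 ± 0.30, adjusted p = 0.0311), and the second duplicate of clone 2.10 lay just above wild type. Chaf1a (0.47 ± 0.16, adjusted p = 0.0296), Prim1 (0.46 ± 0.15, adjusted p = 0.0248) and Prim2 (0.47 ± 0.16, adjusted p = 0.0261) rose by about the same amount. Orc1, the largest origin recognition subunit, was low throughout, at 0.351 and 0.361 CPM in the CVP wild type libraries, 1.46 and 1.14 in clone 2.9 and 1.54 and 0.758 in clone 2.10 (log2 1.77 ± 0.50, adjusted p = 0.0113).

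The genes that fell in CVP were led by Pold1, at 62.4 and 57.9 CPM in the CVP wild type libraries, 27.1 and 30.6 in clone 2.9 and 27.9 and 31.7 in clone 2.10 (log2 -1.04 ± 0.08, adjusted p = 1.26e-06). The clones lay far below wild type and differed little among themselves. Its partner Pold2 fell from 45.9 ± 2.14 (SD, n = 2) to 33.7 ± 1.28 CPM (SD, n = 4; log2 -0.45 ± 0.07, adjusted p = 0.000135). Cdt1 was at 23.2 and 19.8 CPM in the CVP wild type libraries, 13.97 and 12.6 in clone 2.9 and 13.9 and 11.1 in clone 2.10 (log2 -0.74 ± 0.11, adjusted p = 0.000108), and Gmnn at 12.8 and 13.7 CPM in the CVP wild type libraries, 8.20 and 8.27 in clone 2.9 and 7.88 and 8.95 in clone 2.10 (log2 -0.67 ± 0.11, adjusted p = 0.000364). In both genes the clone libraries were all below wild type. Rfc4 (-0.52 ± 0.09), Rpa2 (-0.33 ± 0.10), Lig1 (-0.32 ± 0.08), Orc6 (-0.31 ± 0.08) and Mcm4 (-0.26 ± 0.09) fell by smaller amounts. Rfc4 shares 12.7% of its exon bases with Eif4a2 on the other strand.

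Most of the helicase did not pass in CVP. Mcm5 was at 10.98 and 11.4 CPM in the CVP wild type libraries, 27.9 and 16.9 in clone 2.9 and 24.2 and 12.2 in clone 2.10 (log2 0.86 ± 0.36, adjusted p = 0.0767), Mcm2 at 0.36 ± 0.15, adjusted p = 0.0728 and Mcm10 at 0.53 ± 0.25, adjusted p = 0.103, all 3 with every clone library above wild type. Cdc6 (0.44 ± 0.34, adjusted p = 0.317), Cdc45 (0.14 ± 0.25, adjusted p = 0.69), Rrm2 (0.11 ± 0.17, adjusted p = 0.627) and Pcna (0.10 ± 0.10, adjusted p = 0.451) had clone libraries on both sides of wild type. Uhrf1 (0.16 ± 0.36, adjusted p = 0.749) and Fen1 (-0.17 ± 0.31, adjusted p = 0.678) did not pass either.

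**Figure D3:**
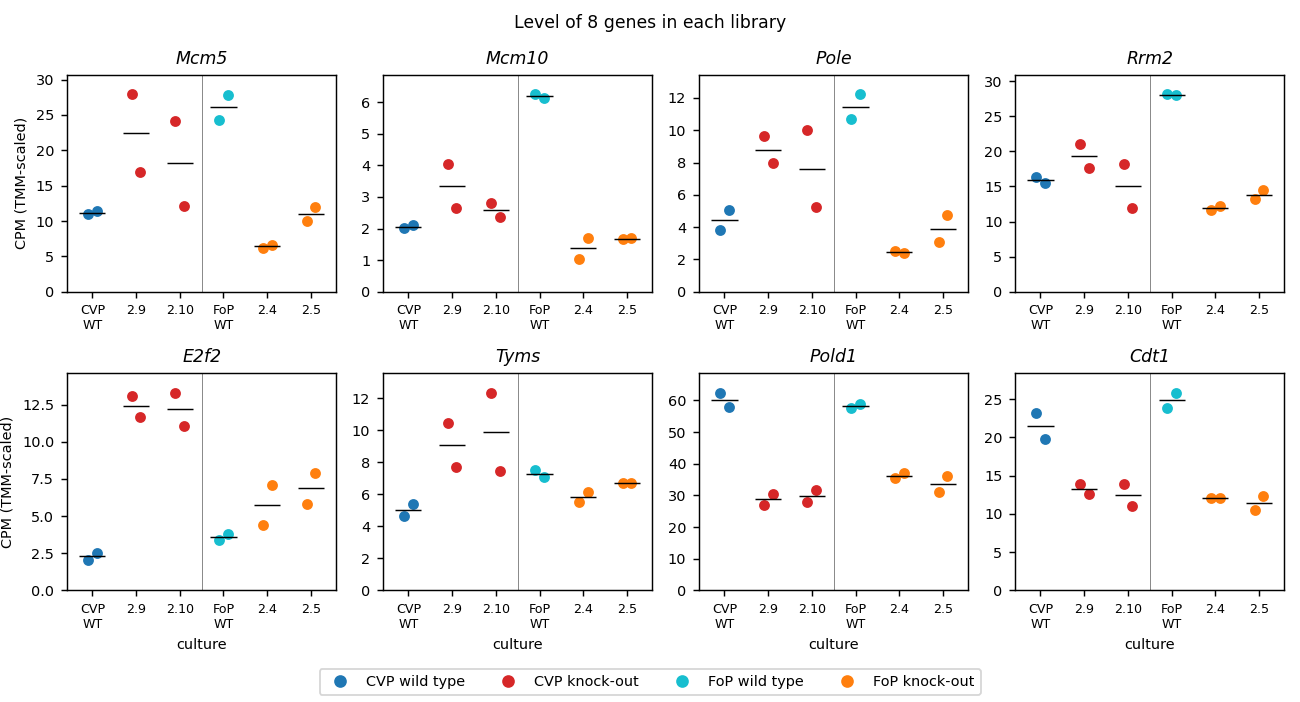
CPM of 8 genes in each library (points, 2 per culture; black lines, mean of the duplicates; linear axis from 0) for wild type and the clones, CVP left and FoP right of the grey line. Mcm5, Mcm10, Pole and Rrm2 are high in FoP wild type and low in clones 2.4 and 2.5, E2f2 is higher in all clones than in their wild type, and Pold1 and Cdt1 are lower in all clones.

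In CVP the duplicates of a clone did not agree for these genes. In clone 2.9 the first duplicate was higher for 39 of the 49 genes, against 49.13% of all tested genes. In clone 2.10 it was higher for 43, against 49.55%. In both clones at once it was higher for 37 (75.5%), against 30.6% of all tested genes. The other 4 cultures leaned the other way. There the first duplicate was higher for 9 genes in FoP wild type (47.02% of all tested genes) and 14 in clone 2.5 (51.28%). It was higher for 16 in CVP wild type (50.11%) and 17 in clone 2.4 (49.58%). The median log2 difference of the first from the second duplicate was 0.22 in clone 2.9 and 0.33 in clone 2.10. In the other 4 cultures it lay between -0.13 and -0.07. Without the first duplicate of both CVP clones the median change of the 49 in CVP was -0.01, with 2 genes rising and 8 falling. Without the second it was 0.31, with 18 rising and 8 falling. With all libraries 23.5% of all tested genes rose and 22.9% fell in CVP, and the shares for these reduced fits are not given here. Orc1, Prim1, Prim2, Pole, Dut and Chaf1a were among the calls lost without the first duplicates, while Tyms and E2f2 rose and Cdt1, Gmnn, Pold1, Pold2 and Rfc4 fell under all 28 alternatives.

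Fewer genes than the 17 were called in CVP without CVP wild type 1 or without CVP wild type 2. Each of these fits leaves a single CVP wild type library, and the shares of all tested genes called in them are not given here. Orc1, Prim1, Prim2, Pole, Dut, Chaf1a and Mcm4 lost their call without each CVP wild type library, Rpa2 and Lig1 without CVP wild type 1, and Orc6 without CVP wild type 2. The calls of Prim1, Prim2, Pole and Chaf1a were also lost without the first duplicate of either clone, that of Dut without the first of clone 2.9, and that of Mcm4 without the second of either clone. Mitosis genes fell in CVP as well (22 of 28, median log2 fold change -0.81). Of the 12 tested keratinocyte differentiation markers 1 rose and 8 fell, and their summed level was 2145 to 2929 counts per M in CVP wild type and 183 to 1233 in the clones, or 95.2 to 116 and 23.8 to 32.6 without Sprr1a. Their part in the values of the replication genes was not tested.

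Each clone was also compared with its wild type in a fit of the 6 cultures, where the spread is that of duplicates alone. In clone 2.9, 16 genes rose (23.4% of all tested genes) and 9 fell (23.6%). In clone 2.10, 6 rose (25.2%) and 9 fell (24.4%). The 6 that rose in both were Orc1, Prim1, Pole, Tyms, Dut and E2f2, and 8 fell in both: Orc6, Cdt1, Gmnn, Pold1, Pold2, Rfc4, Rpa2 and Lig1. Both clones were compared with the same wild type libraries, and the share of all tested genes called in both was not determined. The 10 genes that rose in clone 2.9 alone included Mcm5 (1.00 ± 0.34 against 0.70 ± 0.34 in clone 2.10), Mcm10 (0.70 ± 0.25 against 0.33 ± 0.25), Pcna (0.19 ± 0.07 against -0.00 ± 0.07) and E2f1 (0.50 ± 0.17 against 0.37 ± 0.17). Compared directly, clone 2.10 differed from clone 2.9 in 1 of the 49 genes, Dut, which was lower (-0.71 ± 0.09, adjusted p = 0.000392), while 5.42% of all tested genes differed. Without the first duplicate of clone 2.10, 3 genes differed. In place of the 25 genes called in clone 2.9, there were 11 without its first duplicate and 14 without either CVP wild type library.

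In clone 2.4, 40 genes fell (17.3% of all tested genes) and 2 rose, E2f2 and Dut (15.1%). In clone 2.5, 29 fell (18.1%) and E2f2 rose (16.3%). All 29 that fell in clone 2.5 fell in clone 2.4 too. These clones share the FoP wild type libraries as reference, and the share of all tested genes that fell in both was not determined. The 11 that fell in clone 2.4 alone included Orc1 (-1.62 ± 0.47 against -0.63 ± 0.44 in clone 2.5), Cdc6 (-1.37 ± 0.38 against -1.01 ± 0.38), Mcm6 (-0.75 ± 0.20 against -0.54 ± 0.20) and Ccne1 (-0.70 ± 0.20 against -0.44 ± 0.20). Directly compared, clones 2.5 and 2.4 differed in 2 genes, with E2f1 higher in clone 2.5 (0.60 ± 0.17, adjusted p = 0.0485) and Dut lower (-0.48 ± 0.10, adjusted p = 0.00844), while 7.26% of all tested genes differed. In clone 2.5, 18 genes were called without its first duplicate or without FoP wild type 2, and both calls between the clones were lost without either duplicate of clone 2.5 or the first of clone 2.4. There 1 gene was called without the second duplicate of clone 2.4 or any wild type library, and 4 genes were called without either duplicate of clone 2.10.

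Whether the change labelled knock-out differed between the lines was tested directly, as the change in FoP minus that in CVP. For 23 of the 49 genes it was lower in FoP (8.49% of all tested genes), and for 0 it was higher (7.28%). At an unadjusted p under 0.05 edgeR had 1 gene higher and 36 lower, and DESeq2's Wald test called 0 higher and 32 lower. The licensing genes gave 7 of the 23, nucleotide supply 4 and helicase activation 3. The median difference of the 49 was -0.63, against -0.02 over all tested genes.

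Orc1 (-2.82 ± 0.67, adjusted p = 0.0138), Pole (-2.74 ± 0.42, adjusted p = 0.00257), Mcm10 (-2.55 ± 0.35, adjusted p = 0.00118), Mcm5 (-2.44 ± 0.50, adjusted p = 0.0114) and Cdc45 (-2.06 ± 0.35, adjusted p = 0.00333) differed most, followed by Cdc6 (-1.61 ± 0.48, adjusted p = 0.0381). Pole, Prim1 and Chaf1a were called higher in CVP and lower in FoP. Their CVP calls were lost without each CVP wild type library and without the first duplicate of either CVP clone. E2f2 rose in both lines, by less in FoP (-1.60 ± 0.28, adjusted p = 0.00376 for the difference). Among the rest, Mcm2 (-1.02 ± 0.21), Rrm2 (-1.23 ± 0.24), Tyms (-1.14 ± 0.27), Tk1 (-1.16 ± 0.31) and Ccne2 (-1.53 ± 0.37) also passed, all lower in FoP.

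The 9 genes that fell in both lines were Orc6, Cdt1, Gmnn, Mcm4, Pold1, Pold2, Rfc4, Rpa2 and Lig1. Of these, Lig1 differed between the lines (-0.54 ± 0.11, adjusted p = 0.00655), and the others did not pass, among them Cdt1 (-0.34 ± 0.15, adjusted p = 0.153), Gmnn (0.21 ± 0.16, adjusted p = 0.418) and Pold1 (0.30 ± 0.11, adjusted p = 0.0927). Pcna (-0.43 ± 0.14, adjusted p = 0.0559), E2f1 (-0.34 ± 0.30, adjusted p = 0.503), Ccne1 (-0.71 ± 0.26, adjusted p = 0.083) and Uhrf1 (-1.69 ± 0.51, adjusted p = 0.0526) did not pass either. A further 22 genes fell in FoP and were not called in CVP, 4 rose in CVP and were not called in FoP (Orc1, Prim2, Tyms and Dut), and 10 passed in neither line. The shares of all tested genes with the same pairs of calls were not determined.

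The count of 23 was lower without CVP wild type 1, CVP wild type 2 or FoP wild type 2, and fell to 15 without the first duplicates of both CVP clones. With the duplicates summed per culture, each line has a single wild type sample and 2 residual degrees of freedom remain. The calls were lost in that fit. The share of all tested genes called there is not given here, so the loss does not show that the difference vanished. The median difference of the replication genes lay between -0.75 and -0.52 under all 27 alternatives. Orc1 lost its call without either CVP wild type library, without FoP wild type 2 and without the first duplicates of both CVP clones, Mcm5 without CVP wild type 1, and Cdc6 without any of 9 single libraries. Pole, Mcm10, Cdc45, Mcm7, Prim1, Lig1, Rrm1, Rrm2, Chaf1a and E2f2 lost theirs only with the duplicates summed, of the 27 alternatives run.

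Between the wild type cultures, replication genes were higher in FoP than in CVP. Of the 49 genes 9 were called higher (3.77% of all tested genes) and 0 lower (2.91%), with a median difference of 0.36 against 0.01 over all tested genes. At an unadjusted p under 0.05 edgeR had 30 higher and 0 lower, and DESeq2's Wald test called 17 higher and 0 lower. Mcm10, at 2.01 and 2.11 CPM in CVP and 6.25 and 6.13 in FoP wild type, differed by 1.59 ± 0.29, adjusted p = 0.00849. Rrm2 was at 16.3 and 15.5 and 28.1 and 28.03 CPM (0.82 ± 0.19, adjusted p = 0.0295). The duplicates of each culture were close in both genes and the lines did not overlap.

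Pole (1.37 ± 0.34, adjusted p = 0.036), Cdc45 (1.12 ± 0.29, adjusted p = 0.0357), Chaf1a (0.77 ± 0.18, adjusted p = 0.0286), Prim1 (0.75 ± 0.17), Rrm1 (0.44 ± 0.11) and Lig1 (0.39 ± 0.09) were higher in FoP too. Orc1 passed with 2.06 ± 0.55, adjusted p = 0.0437, though its FoP wild type duplicates were at 0.886 and 2.10 CPM. Mcm2 (0.34 ± 0.17, adjusted p = 0.273), Pcna (0.25 ± 0.11, adjusted p = 0.21), Cdc6 (0.58 ± 0.39, adjusted p = 0.421), Cdt1 (0.21 ± 0.12, adjusted p = 0.351), Gmnn (0.01 ± 0.13, adjusted p = 0.97), E2f1 (0.06 ± 0.25, adjusted p = 0.926) and Ccne1 (0.22 ± 0.21, adjusted p = 0.6) did not pass. The labels do not name the wild type libraries of a line as separate cultures, so line and culture cannot be told apart. The calls were lost without any 1 of the 4 wild type libraries. Such a fit leaves a line with a single wild type library, and the share of all tested genes called there is not given here. The median difference of the replication genes lay between 0.31 and 0.41 under all 27 alternatives. Mitosis genes were higher in FoP wild type for 20 of 28, with a median difference of 1.00.

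Set in order over the 6 cultures, FoP wild type had the highest mean level of 37 of the 49 genes and clone 2.4 the lowest of 30. Clone 2.9 was highest for 8, among them E2f1, E2f2 and Dut, and CVP wild type was lowest for 8, among them Orc1, Tyms, Dut and E2f2. Summed over the 49 genes, the level was 1264 ± 55.9 CPM in FoP wild type (SD, n = 2) and 870 ± 53.5 in the FoP clones (SD, n = 4). In CVP it was 1004 ± 3.04 in wild type (SD, n = 2) and 1039 ± 111 in the clones (SD, n = 4). The summed level of the CVP clones spans that of CVP wild type, while the FoP groups do not overlap.

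**Figure D4:**
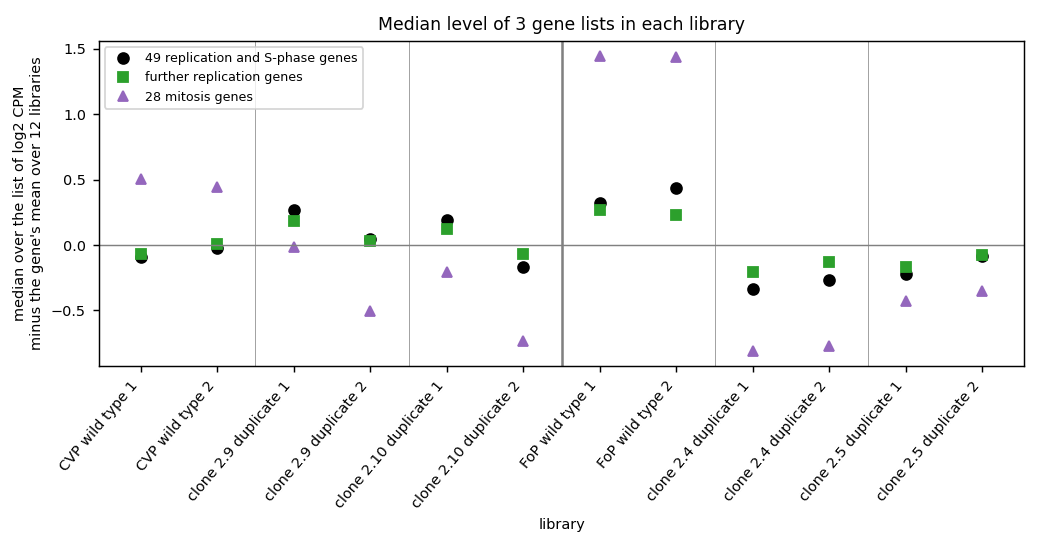
Median over each of 3 gene lists of log2 CPM minus the gene's mean over 12 libraries, by library: the 49 genes (circles), 30 further replication genes (squares) and 28 mitosis genes (triangles). All 3 lists are highest in the FoP wild type libraries, and in CVP the mitosis genes are higher in wild type than in the clones while the 49 genes are not.

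Other genes of the same process, taken from lists that hold none of the 49, were counted in the same fit. Of all tested genes 23.5% rose and 22.9% fell in CVP, and 13.5% rose and 15.3% fell in FoP. Of 30 further replication genes 7 rose and 6 fell in CVP (median 0.11), and 1 rose and 17 fell in FoP (median -0.37), so the CVP counts are near the share of all tested genes. The largest called changes in CVP were in the nuclease and helicase Dna2 (1.27 ± 0.30), in Dbf4 (-0.88 ± 0.08), the activator of the Cdc7 kinase, and in the polymerase delta subunit Pold4 (-0.80 ± 0.16). In FoP they were in the origin firing factor Ticrr (-2.12 ± 0.27), the checkpoint mediator Clspn (-1.83 ± 0.34) and the clamp loader subunit Chtf18 (-1.79 ± 0.24). Of 22 further genes of nucleotide synthesis 10 rose and 6 fell in CVP, led by Nme1 (1.24 ± 0.14), Dctd (1.17 ± 0.11) and Umps (0.93 ± 0.10). In FoP 1 rose and 5 fell, among them Dck (-0.59 ± 0.18) and Shmt2 (-0.37 ± 0.10).

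With the same shares of all tested genes as background, of 10 further genes that copy chromatin, 4 fell in CVP and 10 fell in FoP. The histone chaperone Asf1b (-1.57 ± 0.31), the remodeller Hells (-0.88 ± 0.18) and the histone acetyltransferase Hat1 (-0.59 ± 0.06) changed most in FoP, and Rbbp4 (-0.27 ± 0.04), Dnmt1 (-0.22 ± 0.06) and Slbp (-0.19 ± 0.07) in CVP. Of 24 further G1/S regulators 8 rose and 4 fell in CVP and 1 rose and 14 fell in FoP. The cyclins Ccnd2 (1.02 ± 0.08) and Ccnd1 (0.77 ± 0.10) and the E2F partner Tfdp1 (0.71 ± 0.08) rose most in CVP, and Ccna2 (-2.18 ± 0.30), E2f8 (-2.10 ± 0.27) and E2f7 (-1.95 ± 0.34) fell most in FoP. Of 8 replication checkpoint genes 2 rose and 1 fell in CVP, with the kinases Wee1 (-0.92 ± 0.08) and Atr (0.69 ± 0.08) and the clamp subunit Hus1 (0.30 ± 0.08), and 4 fell in FoP, led by the kinase Chek1 (-1.67 ± 0.31).

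By promoter letters, the 11 genes with E2F-type letters had 7 that fell in FoP (median log2 fold change -0.65), and the 28 with an entry and no such letters had 21 that fell and 1 that rose (median -0.60). In CVP, 1 of the 11 rose, Orc1, and of the 28 without, 5 rose and 7 fell. Of all tested genes 15.3% fell and 13.5% rose in FoP, and in CVP 23.5% rose and 22.9% fell, near which the CVP counts of the 28 lie. The printed pair without these letters are the gene that rose most in CVP, E2f2, and one that fell in both lines, Cdt1.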

How the data were processed

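RNA was sequenced from 12 mouse tongue organoid libraries. The deposited table holds raw counts of 55367 genes, made by the authors with STAR and featureCounts, with the genome hg38, per the submitters' processing notes; versions and the strand setting are not given in the sources used here. The symbols are those of mouse, and 96.1% match 1 gene of GENCODE M21. Libraries were poly(A)-selected and stranded, per the labels' protocols. Exon lengths and overlaps come from GENCODE M21, and promoters from RefSeq. Counts of 2 were more frequent than 1 and counts of 4 than 3, so counts were also halved.

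The members and lists were chosen with earlier results of these data known. Genes were filtered with filterByExpr (17076 kept), scaled by TMM and tested in R 4.3.3 by the quasi-likelihood test of edgeR 4.0.16, and p-values were adjusted by Benjamini-Hochberg across the whole table, with 0.05 as threshold. The fit of 4 groups has 8 residual degrees of freedom and that of 6 cultures has 6. Each standard error was derived from the F statistic, by dividing the log2 fold change by its root. The script was tested on simulated data. The named genes are, per comparison, the 6 called members with the largest change in each direction, per role the largest called one and one that did not pass, Mcm2, Pcna, Cdc6, Cdt1, Gmnn, Rrm2, E2f1 and Ccne1 throughout, and the 3 largest called genes of each other list. One gene that this rule names is not reported here.

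The alternatives tried were scaling by DESeq2 size factors, omission of the filter, a minimum of 1 CPM in 4 libraries, halved counts, the replicate number as a block, the DESeq2 1.42.0 Wald test, limma 3.58.1 voom with culture as a block (correlation 0.255), duplicates summed per culture, 6 cultures as groups, 1 line per fit, and each library or clone left out. Leaving out the first or the second duplicates of both CVP clones was added after the data were seen. Precision is limited by the 2 libraries per culture (59.3 to 73.6 M counts each) and, for the genes with few counts, by depth.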

Additional observations from a re-analysis of the deposited data

Results flagged for a closer look

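The level of each of the 49 genes and their summed level were examined for a single library far from the other 3 in both knock-out groups, and 4 of 100 groups had one; chance gives about 1 in 20. Mcm10 was at 1.03 CPM in the first duplicate of clone 2.4, below the other FoP knock-out libraries, and Pole2 at 4.35, also lowest, in the same library. Cdc45 was at 2.86 CPM in the second duplicate of clone 2.5, above the others. Rfc3 was at 21.2 CPM in the first duplicate of clone 2.9, above the other CVP knock-out libraries.

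For 23 genes the change in the clones labelled knock-out differed between the lines by edgeR's test of the difference itself, all lower in FoP. On the log2 scale the differences of the licensing genes were -2.82 for Orc1, -1.61 for Cdc6, -1.02 for Mcm2, -1.56 for Mcm3, -2.44 for Mcm5, -1.07 for Mcm6 and -0.63 for Mcm7. They were -2.55 for Mcm10, -2.06 for Cdc45 and -1.03 for Gins1 in helicase activation. At the fork they were -0.47 for Pola2, -1.06 for Prim1, -2.74 for Pole, -0.72 for Rfc5 and -0.54 for Lig1. In nucleotide supply they were -0.67 for Rrm1, -1.23 for Rrm2, -1.14 for Tyms and -1.16 for Tk1. Chaf1a (-1.32), Chaf1b (-0.99), E2f2 (-1.60) and Ccne2 (-1.53) made up the rest.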

How the results depend on the processing

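The members called were 17 in CVP, 35 in FoP, 23 for the difference between the lines and 9 between the wild type cultures, and no called member reversed under any alternative in these comparisons. Leaving out 1 library gave 9 to 22 calls in CVP, 20 to 38 in FoP, 11 to 31 for the difference, 0 to 10 between the wild types, 11 to 29 in clone 2.9, 10 to 20 in clone 2.10, 29 to 42 in clone 2.4, 18 to 34 in clone 2.5, 1 to 3 between the CVP clones and 0 to 4 between the FoP clones. Duplicates summed per culture gave 7 in CVP, 8 in FoP, 0 for the difference and 0 between the wild types, where 2 residual degrees of freedom remain. limma voom with culture as a block gave 11 in CVP, 14 for the difference and 3 between the wild types. Between the wild types the DESeq2 Wald test and the fit of 6 cultures each gave 17. Without the first duplicates of both CVP clones, an alternative chosen after seeing the data, there were 10 in CVP, 15 for the difference, 2 between the CVP clones and 8 between the FoP clones, and without the second 26, 36, 23 in clone 2.10 and 8 between the FoP clones. Between the CVP clones no filter gave 3, and between the FoP clones no filter gave 6 and the filter of 1 CPM and halved counts 1 each. The replicate block gave 5 between the wild types and 1 between the FoP clones, where the libraries share only a number: the deviations of like-numbered libraries from their culture means correlated between cultures at -0.056 to 0.114 over all tested genes and at -0.476 to 0.624 over the 49, highest between clones 2.9 and 2.10, and not over 0.1 in every pair, so no pairing was taken from the numbers. All other alternatives kept these counts within 1.5 times. Apart from the summed duplicates and the left out libraries, where fewer samples are tested, the cause was not tested. The shares of all tested genes called under these alternatives are not given here, so a lower count does not set the replication genes apart from the rest. Depth limits Dscc1 (from 10 counts) and Orc1, whose levels rest on few counts.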

Other observations

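The genes that restrain the cyclin-dependent kinases moved in both lines: of 7 CDK inhibitors, Cdkn2a and Cdkn2b rose and the other 5 fell, in CVP as in FoP. Over all tested genes, 23.5% rose and 22.9% fell in CVP, and 13.5% rose and 15.3% fell in FoP. Cdkn2a, which encodes the inhibitor of Cdk4 and Cdk6 and the regulator of p53 from 1 locus, was at 10.1 and 11.9 CPM in the CVP wild type libraries, 40.5 and 43.2 in clone 2.9 and 46.9 and 47.5 in clone 2.10 (log2 2.02 ± 0.11, adjusted p = 1.66e-07 in edgeR's test). In FoP it was at 8.50 and 9.90 CPM in the FoP wild type libraries, 39.3 and 39.6 in clone 2.4 and 46.5 and 40.98 in clone 2.5 (log2 2.18 ± 0.11, adjusted p = 3.59e-07). No clone library overlapped wild type in either line. Its neighbour Cdkn2b rose less (0.66 ± 0.07 in CVP and 0.52 ± 0.07 in FoP). The counts do not separate the transcripts of Cdkn2a.

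The inhibitors that fell were Cdkn1a (-0.69 ± 0.12 in CVP and -1.05 ± 0.12 in FoP), Cdkn1b (-0.81 ± 0.09 and -0.40 ± 0.09), Cdkn1c (-2.18 ± 0.21 and -0.96 ± 0.21), Cdkn2c (-1.496 ± 0.164 and -1.02 ± 0.16) and Cdkn2d (-1.15 ± 0.12 and -0.35 ± 0.12). The fall was smaller in FoP for Cdkn1b, Cdkn1c and Cdkn2d by the test of the difference (adjusted p = 0.0434, 0.0207 and 0.00871). Among the 28 mitosis genes, Cenpa, the centromere histone, changed most in CVP and the checkpoint kinase Bub1 (-2.28 ± 0.28) in FoP. The division marker Mki67 was at 48.8 and 51.9 CPM in the CVP wild type libraries, 50.6 and 37.2 in clone 2.9 and 41.9 and 25.3 in clone 2.10, and at 103 and 105 CPM in the FoP wild type libraries, 24.9 and 22.7 in clone 2.4 and 27.7 and 31.3 in clone 2.5. It was named after its values were seen. In both CVP clones the first duplicate was higher than the second for 27 of the 28 mitosis genes (96.4%), as for 37 of the 49 replication genes. Over all tested genes that share was 30.6%.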
